A study of Homo sapiens with 8 samples.

Results

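The glutathione system of a urothelial cell line was described through 10 genes, taken from the deposited count table as the rows named GCLC, GCLM, GSS, GSR, GPX1, GPX2, GPX4, GPX8, GSTP1 and GLRX. All 10 were found among the 58735 genes of the table, and 9 of them, all but GPX2, had enough reads to enter the test with 17413 genes in all. The cells were SV-HUC1, an SV40-immortalised line of human urothelial cells labelled normal, so no other donor or line stands behind the values. RNA was sequenced from 4 cultures that received 20 mU/ml of glucose oxidase for 24 h and from 4 untreated control cultures grown in the same medium with 5% serum. Glucose oxidase makes hydrogen peroxide while it consumes glucose, and no group received peroxide alone or inactive enzyme, so peroxide and the other effects of the enzyme cannot be told apart. The comparison asks how the glutathione genes of these cells stand after a day of this low-grade oxidative exposure.

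Glutathione is a small thiol peptide that cells make from glutamate, cysteine and glycine by glutamate cysteine ligase and then glutathione synthetase. Glutathione peroxidases spend it to reduce hydrogen peroxide and lipid peroxides, glutaredoxin uses it to release proteins from mixed disulphides, and glutathione S-transferases join it to reactive compounds. Glutathione reductase returns the oxidised form to the reduced form with NADPH. Several of these genes are known targets of NRF2, which switches on antioxidant genes.

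Total counts ran from 21437267 to 27183692 in the 8 libraries. Of 13 urothelial markers 10 had a mean above 1 CPM, and the summed level of all 13 was 3913 to 4407 CPM with glucose oxidase and 5284 to 7298 CPM in controls, with UPK1A and UPK3A near 0. KRT5, KRT7, KRT8, KRT19 and EPCAM were lower with glucose oxidase at every replicate number. CDH1 and GATA3 were higher at every number, with CDH1 at 164 to 329 CPM with glucose oxidase and 111 to 242 CPM in controls. The rest were mixed or near 0. The summed fibroblast markers were at 14.3 to 26.2 CPM with glucose oxidase and at 16.2 to 25.9 CPM in controls. The summed endothelial markers were at 2.49 to 5.88 CPM with glucose oxidase and 3.24 to 4.98 CPM in controls, and the leukocyte markers at 2.57 to 2.82 CPM with glucose oxidase and 3.63 to 5.24 CPM in controls. In each of these 3 groups only 1 gene had a mean above 1 CPM, which was COL1A1, CDH5 and CSF1R in turn. The part of the lower urothelial marker sum in the results was not tested. In the expression values, though not in the labels, replicates 1 and 2 of both groups stood apart from replicates 3 and 4.

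The replicate numbers 1 to 4 stand in both groups, and libraries of the same number deviated together from their group means, so each change is given from a fit that takes the replicate number as a block. Deviations also correlated with the other number of the same set (1 and 2, or 3 and 4). These correlations were 0.443 to 0.652, against 0.503 to 0.678 for the same number. The agreement therefore does not show that a number marks a shared experiment. The words rose and fell are used here only of genes with an adjusted p below 0.05 in that blocked edgeR fit, with adjustment over all 17413 genes. The edgeR fit with the group as its only term, planned as the main fit, called 0% of these genes, none of the 9 glutathione genes among them. In it 1284 genes (7.37%) had an unadjusted p below 0.05. In DESeq2 without the block 35 genes were called higher and 39 lower, again with none of the 9. The blocked fit called 14.5% of all genes, 7.51% higher and 6.97% lower. Of the glutathione genes it called 0 of 9 higher and 2 of 9 lower, GSTP1 and GLRX. The replicates are biological per the labels and come from independent experiments per the design text, but neither states that a number was shared on purpose between the groups. A fit with a term for the sets of replicates (1 and 2, 3 and 4), called the set term, was therefore put in place of the block as an alternative.

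None of the 9 tested genes of glutathione synthesis, use or recycling rose after glucose oxidase, and the 2 that fell were a transferase and a glutaredoxin. The median log2 change of the 9 genes was -0.16, against -0.01 over all genes tested, and it was -0.31, -0.02, -0.34 and 0.02 in the same-number pairs 1 to 4. With total counts for scaling these medians were -0.05 for the 9 genes and 0.10 for all genes. In all 10 genes the libraries of both groups overlapped, while over all genes tested 5.02% had groups that did not overlap, 2.42% with glucose oxidase above and 2.6% with it below. GPX8, GSTP1 and GLRX were lower with glucose oxidase in all 4 pairs, 3 of 9 genes, against 17.1% of all genes. None of the 9 was higher in all 4 pairs, against 16.9% of all genes, and 34% of all genes had 1 sign in all 4 pairs.

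**Figure D1:**
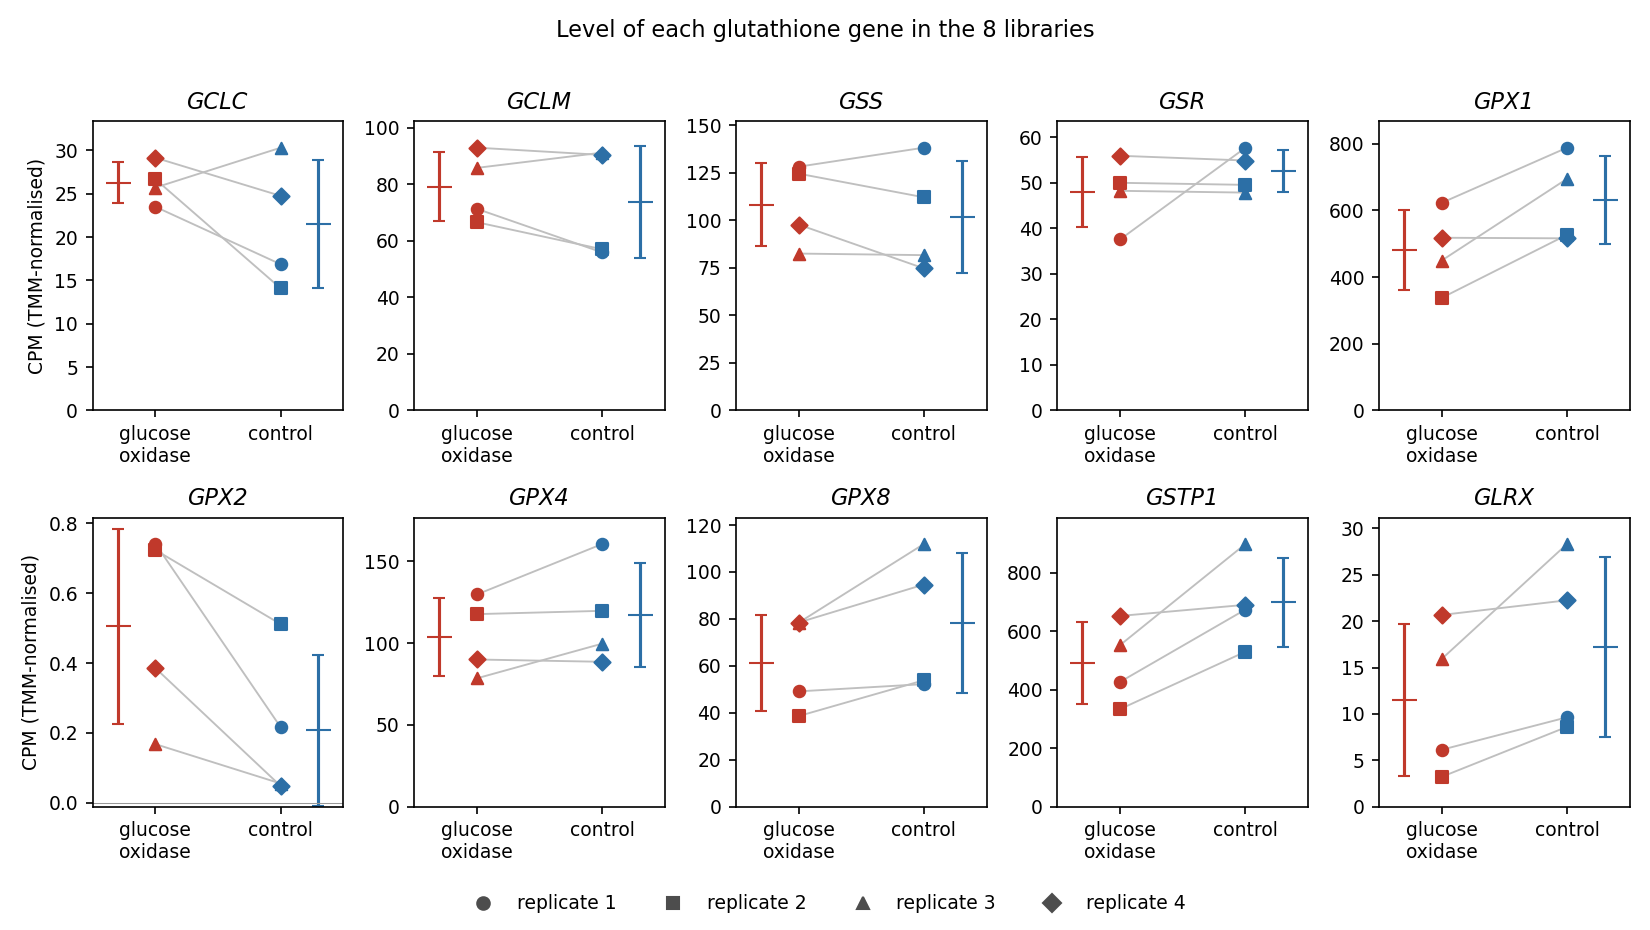
Level of each of the 10 genes in CPM (counts scaled to library size with TMM) in the 4 glucose oxidase libraries (red, left) and the 4 control libraries (blue, right). Symbols are replicate numbers, grey lines join libraries of the same number, and bars beside the points are the mean and SD over 4 libraries; the SD of GPX2 in controls (0.217) exceeds its mean (0.208), so that bar passes below 0. The lines of GPX8, GSTP1 and GLRX all lead up to the control, and in every panel the levels of the groups overlap.

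GLRX (ENSG00000173221), the cytosolic glutaredoxin that removes glutathione from protein thiols, lies on chromosome 5 (95751319 to 95823005, minus strand, GRCh38). It was at 6.14, 3.21, 15.9 and 20.7 CPM in glucose oxidase replicates 1 to 4, and at 9.64, 8.61, 28.3 and 22.3 CPM in control replicates 1 to 4. Replicates 1 and 2 were low and replicates 3 and 4 high in both groups, and within each number the glucose oxidase library was the lower. GLRX fell by 0.72 on the log2 scale (SE 0.18, 95% interval -1.08 to -0.36, blocked edgeR adjusted p = 0.00711), to 0.607 of the control level. In bulk RNA a lower level in every cell and fewer cells that express the gene cannot be told apart. The 4 pairs differed by -0.64, -1.40, -0.83 and -0.11, so the fourth pair was close to no change. Without the block the spread between the sets of replicates covered the difference, with a mean of 11.5 ± 8.19 CPM with glucose oxidase and 17.2 ± 9.67 CPM in controls (SD, n = 4 each, log2 change -0.58, edgeR adjusted p = 0.773).

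The call of GLRX held in 9 of 10 fits with the block or the set term. With the set term the log2 change was -0.70 (edgeR adjusted p = 0.0423), in a fit that called 6.79% of all genes, 3.72% higher and 3.07% lower. It was lost without replicate 2 (log2 change -0.51, blocked edgeR adjusted p = 0.0723). The gene RHOBTB3 lies on the opposite strand over the same stretch of chromosome 5, but the annotated exons of the 2 genes share 0 bases. RHOBTB3 was also lower (log2 change -0.54, blocked edgeR adjusted p = 0.0136), and the strand setting was not given in the sources used here.

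GSTP1 (ENSG00000084207), the pi class glutathione S-transferase and the most abundant transferase of many epithelia, lies on chromosome 11 (67583595 to 67586656, plus strand). Its levels were 427, 334, 553 and 652 CPM in glucose oxidase replicates 1 to 4, and 674, 530.1, 899 and 690.5 CPM in control replicates 1 to 4. Each glucose oxidase library lay below the control of its number, though glucose oxidase replicates 3 and 4 lay above control replicate 2. GSTP1 fell by 0.53 on the log2 scale (SE 0.17, 95% interval -0.87 to -0.19, blocked edgeR adjusted p = 0.0322), to 0.694 of the control level. The first 3 pairs differed by -0.66, -0.67 and -0.70, and the fourth by -0.08.

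This call held in 4 of 10 such fits, against 9 for GLRX. With the set term the log2 change was again -0.53 (edgeR adjusted p = 0.0802). With total counts for scaling it was -0.42 (blocked edgeR adjusted p = 0.0727). Leaving out replicate numbers in turn gave an adjusted p of 0.0355 (without replicate 4) to 0.131. With a correction for gene length the log2 change was -0.42 (blocked edgeR adjusted p = 0.0923), in a fit that called 12.8% of all genes, 5.94% higher and 6.84% lower. Short genes were lower across these libraries, with a median log2 change of -0.19 in the shortest of 10 length classes and 0.18 in the longest. The annotated exons of GSTP1 span 1911 bases, in a class with a median of -0.16, and those of GLRX 6508 bases, in a class with a median of 0.06. GLRX kept its call with that correction (log2 change -0.79, blocked edgeR adjusted p = 0.00397).

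**Figure D2:**
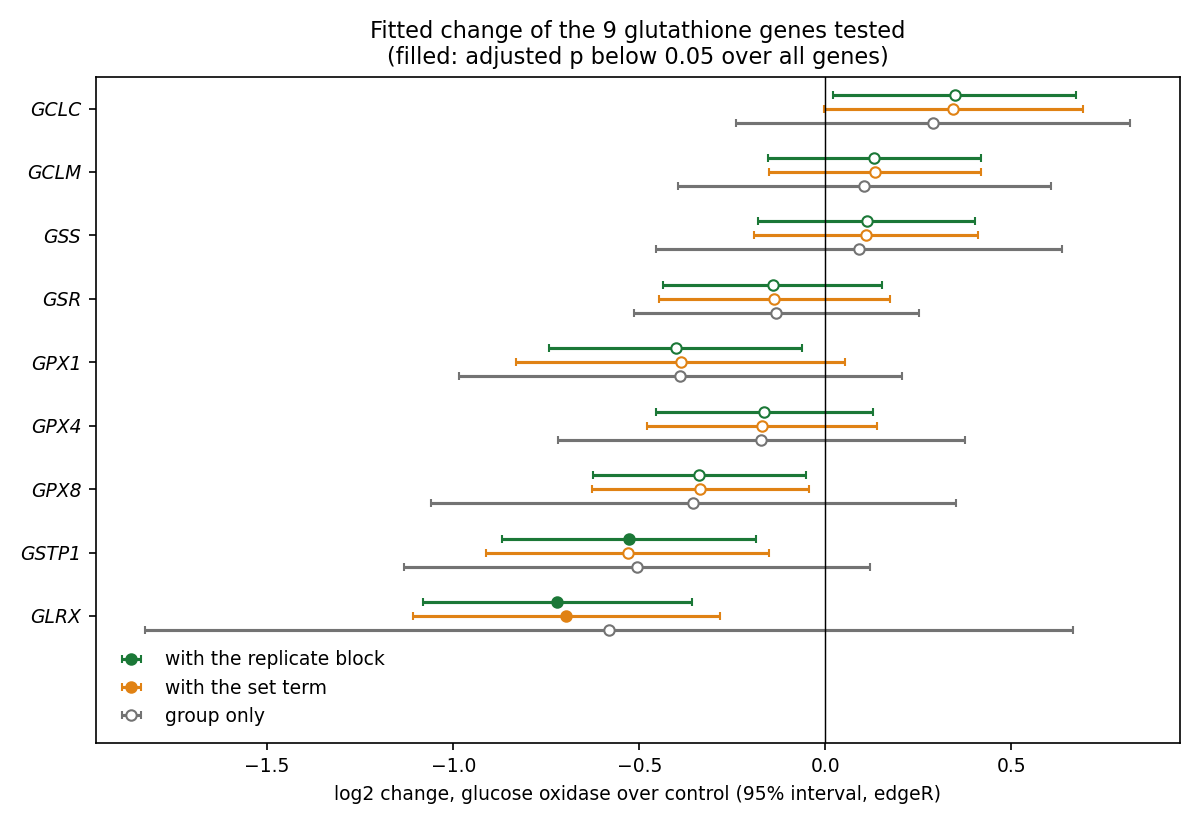
Fitted log2 change (glucose oxidase over control) of the 9 genes tested, with 95% intervals from edgeR, in the fit with the replicate block (green), with the set term (orange) and with the group only (grey). Filled points have an adjusted p below 0.05 over all genes, which are GSTP1 and GLRX with the block and GLRX with the set term, and every grey interval covers 0.

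**Figure D3:**
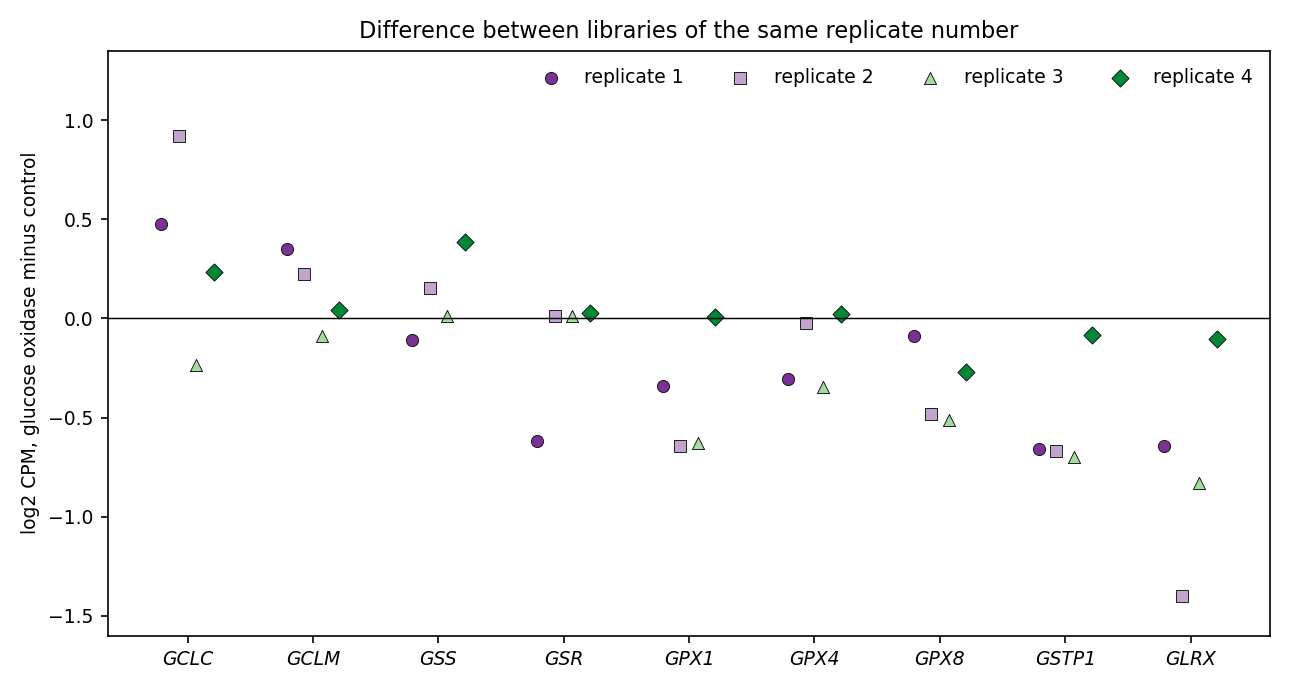
Difference in log2 CPM between the glucose oxidase and the control library of the same replicate number, for the 9 genes tested, with 1 symbol for each of the 4 pairs. GPX8, GSTP1 and GLRX have all 4 points below 0, with GLRX from -1.40 to -0.11. The points of GCLC, GCLM, GSS, GSR, GPX1 and GPX4 lie on both sides, GPX1 with pair 4 at 0.005 and the rest below 0.

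Of the synthesis genes, the catalytic and the modifier subunit of glutamate cysteine ligase and the synthetase had fitted changes above 0, and none passed. GCLC (ENSG00000001084, chromosome 6, 53497341 to 53616970, minus strand) encodes the catalytic subunit of the enzyme that limits the rate of glutathione synthesis. It was at 23.5, 26.7, 25.7 and 29.2 CPM in glucose oxidase replicates 1 to 4, and at 16.9, 14.1, 30.3 and 24.8 CPM in control replicates 1 to 4. The glucose oxidase libraries lay within a narrow range, while control replicates 1 and 2 lay below all of them and control replicate 3 above. GCLC had a log2 change of 0.35 (SE 0.16, 95% interval 0.02 to 0.67, blocked edgeR adjusted p = 0.145), and pair differences of 0.48, 0.92, -0.24 and 0.24. Without replicate 3 it was called higher (log2 change 0.54, blocked edgeR adjusted p = 0.0499), the 1 call of 10 such fits.

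In replicates 1 and 2 GCLC averaged 25.1 CPM with glucose oxidase and 15.5 CPM in controls, and in replicates 3 and 4 it averaged 27.4 CPM with glucose oxidase and 27.5 CPM in controls. A test of whether the change differed between these sets did not pass (interaction in edgeR, adjusted p = 0.532), and 0 of the 9 genes passed it, against 0.23% of all genes. The annotated RNA gene AL033397.1 shares 529 of the 8646 exon bases of GCLC (6.12%), with at most 1 count in any library.

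GCLM (ENSG00000023909, chromosome 1, 93885205 to 93909456, minus strand), the modifier subunit that raises the activity of the ligase, was at 71.3, 66.6, 85.8 and 93.0 CPM with glucose oxidase. Its controls were at 55.9, 57.0, 91.2 and 90.4 CPM. Pairs 1 and 2 were higher with glucose oxidase, by 0.35 and 0.22 on the log2 scale, and pairs 3 and 4 lay at -0.09 and 0.04. The fitted log2 change was 0.13 (95% interval -0.15 to 0.42, blocked edgeR adjusted p = 0.581). Per length, GCLM was 4.84, 3.98, 5.33 and 5.09 times the FPKM of GCLC in glucose oxidase replicates 1 to 4 and 5.29, 6.46, 4.8 and 5.83 times in control replicates 1 to 4, ranges that overlap.

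GSS (ENSG00000100983, chromosome 20, 34928433 to 34956027, minus strand), glutathione synthetase, joins glycine in the last step. It averaged 108 ± 21.9 CPM with glucose oxidase and 102 ± 29.3 CPM in controls (SD, n = 4 each), with a log2 change of 0.11 (95% interval -0.18 to 0.40, blocked edgeR adjusted p = 0.660). Its pairs differed by -0.11, 0.15, 0.01 and 0.39.

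The peroxidases GPX1, GPX2 and GPX4 carry selenocysteine at the active site, encoded by an in-frame TGA codon that is otherwise a stop, while GPX8 has a cysteine codon at that place. The stretch of coding sequence around this codon is shown for the 4 genes because it holds the codon, TGA or cysteine, in which they differ. The codon of GPX8 was placed by aligning its translation with those of GPX1 and GPX4. The sequences come from the GENCODE 29 transcripts (GRCh38), read 5′ to 3′ on the coding strand, with the selenocysteine or cysteine codon in capitals. The codon of GPX1 is codon 49, in exon 1 of 2 (chr3:49358132-49358134), and that of GPX2 codon 40, in exon 1 of 2 (chr14:64942607-64942609). The codon of GPX4 is codon 73, in exon 3 of 7 (chr19:1105403-1105405), and that of GPX8 codon 79, in exon 2 of 3 (chr5:55161024-55161026).
GPX1: gtggcgtccctcTGAggcaccacggtc
GPX2: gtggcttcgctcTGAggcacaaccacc
GPX4: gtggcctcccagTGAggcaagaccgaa
GPX8: gtggccagtgacTGCcaactcacagac

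None of the 3 tested peroxidases among the 10 genes passed, and their fitted changes were all below 0. With the correction for gene length they were -0.27 for GPX1, -0.06 for GPX4 and -0.33 for GPX8, and GPX1 (1430 bases) and GPX4 (2019 bases) are short. GPX1 (ENSG00000233276, chromosome 3, 49357171 to 49358600, minus strand), the abundant cytosolic and mitochondrial peroxidase, was at 623, 338, 449.7 and 518 CPM in glucose oxidase replicates 1 to 4. Its controls were at 788, 527, 695 and 516 CPM, so the glucose oxidase library was the lower in pairs 1 to 3 and pair 4 was level. The log2 change was -0.40 (SE 0.17, 95% interval -0.74 to -0.06, blocked edgeR adjusted p = 0.104), and DESeq2 with the block called it lower (adjusted p = 0.0333). GPX1 carries the biotype polymorphic pseudogene in the annotation, and its processed copy GPX1P1 was at 4.10 to 7.85 CPM with glucose oxidase and 4.86 to 12.1 CPM in controls, so some reads may be shared.

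GPX8 (ENSG00000164294, chromosome 5, 55160118 to 55167071, plus strand), a peroxidase of the endoplasmic reticulum membrane, was at 49.1, 38.6, 78.36 and 78.44 CPM in glucose oxidase replicates 1 to 4. Its controls were at 52.2, 53.9, 112 and 94.6 CPM. All 4 pairs were lower with glucose oxidase, with log2 differences of -0.09, -0.48, -0.51 and -0.27, and in both groups replicates 3 and 4 were the high ones. The log2 change of -0.34 did not pass (SE 0.14, 95% interval -0.63 to -0.05, blocked edgeR adjusted p = 0.103).

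GPX4 (ENSG00000167468, chromosome 19, 1103926 to 1106791, plus strand), the peroxidase that reduces lipid peroxides in membranes and guards against ferroptosis, averaged 104 ± 23.8 CPM with glucose oxidase and 117 ± 31.7 CPM in controls (SD, n = 4 each). Pairs 1 and 3 differed by -0.31 and -0.34 and pairs 2 and 4 by -0.02 and 0.02. The fitted log2 change was -0.16 (95% interval -0.45 to 0.13, blocked edgeR adjusted p = 0.484).

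GPX2 (ENSG00000176153, chromosome 14, 64939152 to 64942905, minus strand), the gastrointestinal peroxidase of epithelia and a known NRF2 target, was near the limit of detection. It had 22, 18, 4 and 10 counts in glucose oxidase replicates 1 to 4 and 5, 13, 1 and 1 counts in control replicates 1 to 4, which is 0.742, 0.723, 0.168 and 0.386 CPM with glucose oxidase and 0.216, 0.511, 0.055 and 0.048 CPM in controls. The glucose oxidase library held more counts in each pair, and the groups overlapped. With genes of low counts kept in the fit the log2 change was 1.46 (blocked edgeR adjusted p = 0.202) and 1.24 without the block (edgeR adjusted p = 0.684). The gene CHURC1 overlaps GPX2 on the opposite strand, but the annotated exons of the 2 genes share 0 bases. CHURC1 was at 54.6 to 94.6 CPM with glucose oxidase and 69.0 to 105 CPM in controls. The strand setting was not given, and whether reads of CHURC1 are among the counts of GPX2 was not tested.

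GSR (ENSG00000104687, chromosome 8, 30678061 to 30727999, minus strand), glutathione reductase, was at 37.5, 49.95, 48.2 and 55.9 CPM in glucose oxidase replicates 1 to 4 and at 57.7, 49.5, 47.8 and 54.8 CPM in control replicates 1 to 4. Pair 1 differed by -0.62 on the log2 scale and the other 3 pairs by 0.01 to 0.03. The fitted log2 change was -0.14 (95% interval -0.44 to 0.15, blocked edgeR adjusted p = 0.563), and it was 0.03 without replicate 1.

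Levels can be compared between genes only per length, for which the deposited FPKM values serve. GPX1 was highest, with 332 ± 84.8 FPKM in glucose oxidase libraries and 436 ± 94.0 FPKM in controls (SD, n = 4 each, as for all FPKM values here). GSTP1 followed at 254 ± 75.0 FPKM with glucose oxidase and 362 ± 88.1 FPKM in controls, within the spread of GPX1. GPX4 stood apart from its neighbours in the order, with 50.5 ± 11.1 FPKM with glucose oxidase and 57.1 ± 14.6 FPKM in controls. The next 4 genes could not be ordered beyond their spread. GPX8 was at 15.6 ± 5.40 FPKM with glucose oxidase and 20.1 ± 8.17 FPKM in controls, and GSS at 17.2 ± 3.29 FPKM with glucose oxidase and 16.2 ± 4.38 FPKM in controls. GSR was at 12.5 ± 2.01 FPKM with glucose oxidase and 13.8 ± 1.16 FPKM in controls, and GCLM at 14.4 ± 2.42 FPKM with glucose oxidase and 13.5 ± 3.95 FPKM in controls. GLRX (1.75 ± 1.26 FPKM with glucose oxidase, 2.64 ± 1.54 FPKM in controls) and GCLC (2.99 ± 0.27 FPKM with glucose oxidase, 2.47 ± 0.92 FPKM in controls) were lower and overlapped. GPX2 was lowest, at 0.329 ± 0.179 FPKM with glucose oxidase and 0.134 ± 0.138 FPKM in controls.

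**Figure D4:**
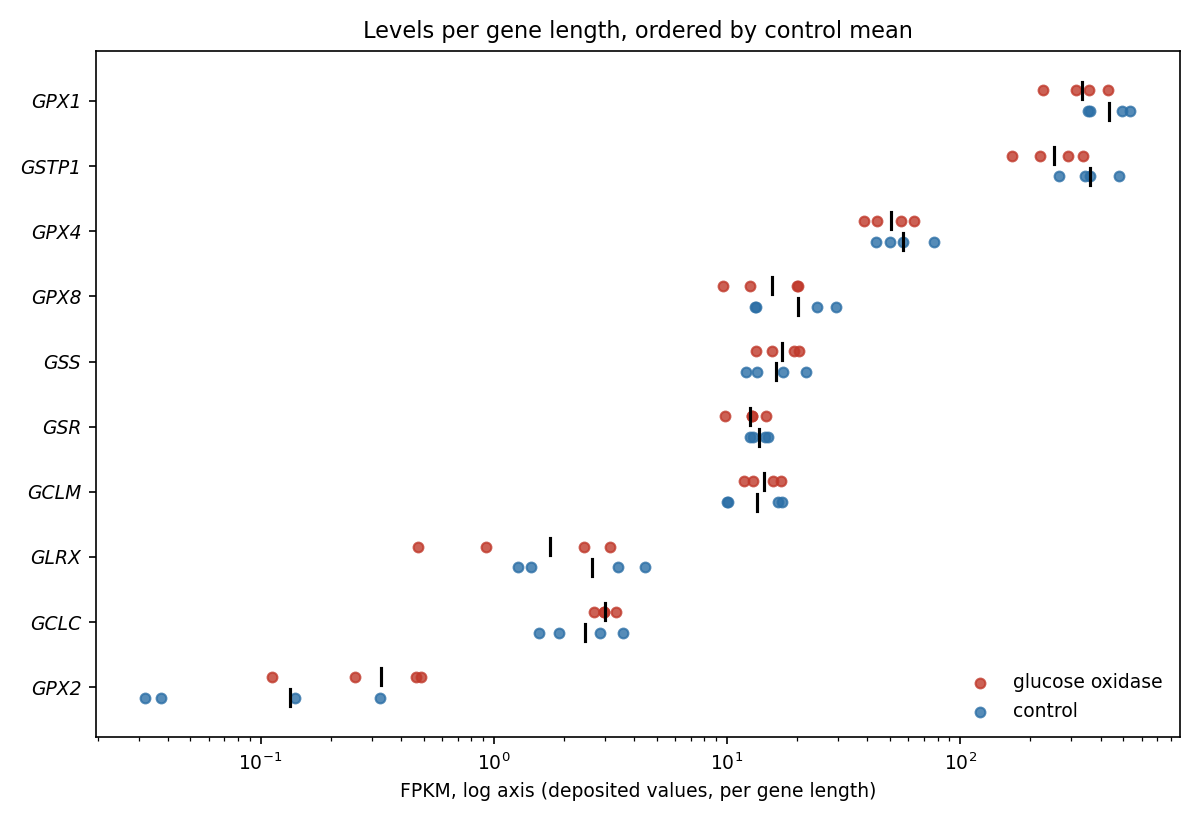
Deposited FPKM of the 10 genes in each library on a log axis, ordered by the control mean, with glucose oxidase libraries in red above control libraries in blue and the mean of 4 libraries as a black bar. GPX1 and GSTP1 lie highest (control means 436 and 362 FPKM) and GPX2 lowest (0.134 FPKM), and the points of neighbours such as GSS, GSR and GCLM overlap.

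The separation of replicates 1 and 2 from replicates 3 and 4 was larger than the change with glucose oxidase for GLRX, GPX8, GCLC, GCLM, GSS and GPX4 in controls. With glucose oxidase, GLRX was 3.91 times as high in replicates 3 and 4 as in replicates 1 and 2, and in controls 2.77 times. GPX8 was 1.79 times as high with glucose oxidase and 1.95 times in controls, GCLC 1.09 times with glucose oxidase and 1.78 times in controls, and GCLM 1.30 times with glucose oxidase and 1.61 times in controls. GSTP1 was 1.58 times as high with glucose oxidase and 1.32 times in controls. GSS went the other way, at 0.713 with glucose oxidase and 0.625 in controls, and so did GPX4, at 0.681 with glucose oxidase and 0.672 in controls. GPX1 (1.01 with glucose oxidase, 0.921 in controls) and GSR (1.19 with glucose oxidase, 0.958 in controls) were nearly level between the sets. These ratios are descriptions, since the sets were found from the expression values.

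Promoters from RefSeq (GRCh38.p14, 250 bases before to 50 bases after the start) were at hand for 8 of the 10 genes, in 10 promoters. The core of the antioxidant response element, TGACNNNGC on either strand, was found in 3 of the 10 promoters, against 13.3% of 35116 promoters of that length. These 3 belong to 3 of the 8 genes, GCLM, GSTP1 and GPX2. The match lay at positions -34 to -26 from the start in GCLM (TGACTAAGC, minus strand), at -66 to -58 in GSTP1 (TGACTCAGC, plus strand) and at -122 to -114 in GPX2 (TGACTTAGC, minus strand), with strands relative to the gene. In GSTP1 it overlapped a match to TGANTCA, the AP-1 site, at -66 to -60, found in 7.71% of promoters. These 3 are shown with the match in capitals on the strand of the gene, beside that of GLRX, which held neither. They are at chr1:93909381-93909680 (minus strand), chr11:67583562-67583861 (plus), chr14:64942696-64942995 (minus) and chr5:95822677-95822976 (minus). A match is a run of letters and not a measured binding site.
GCLM: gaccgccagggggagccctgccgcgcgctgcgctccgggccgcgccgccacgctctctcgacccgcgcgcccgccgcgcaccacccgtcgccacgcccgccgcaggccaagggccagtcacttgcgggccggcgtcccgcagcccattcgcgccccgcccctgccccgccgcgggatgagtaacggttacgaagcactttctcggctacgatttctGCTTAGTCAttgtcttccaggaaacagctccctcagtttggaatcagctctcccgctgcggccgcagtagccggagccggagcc
GSTP1: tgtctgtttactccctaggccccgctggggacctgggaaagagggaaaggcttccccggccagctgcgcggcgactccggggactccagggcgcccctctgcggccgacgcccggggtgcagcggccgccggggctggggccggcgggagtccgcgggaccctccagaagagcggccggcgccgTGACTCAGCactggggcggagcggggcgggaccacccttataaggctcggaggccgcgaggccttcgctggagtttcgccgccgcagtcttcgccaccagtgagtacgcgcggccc
GPX2: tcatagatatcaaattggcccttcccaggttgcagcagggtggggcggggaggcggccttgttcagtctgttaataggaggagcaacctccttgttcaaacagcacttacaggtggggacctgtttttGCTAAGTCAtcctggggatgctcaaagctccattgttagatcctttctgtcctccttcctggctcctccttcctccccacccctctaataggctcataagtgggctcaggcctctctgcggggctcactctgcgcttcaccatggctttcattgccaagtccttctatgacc
GLRX: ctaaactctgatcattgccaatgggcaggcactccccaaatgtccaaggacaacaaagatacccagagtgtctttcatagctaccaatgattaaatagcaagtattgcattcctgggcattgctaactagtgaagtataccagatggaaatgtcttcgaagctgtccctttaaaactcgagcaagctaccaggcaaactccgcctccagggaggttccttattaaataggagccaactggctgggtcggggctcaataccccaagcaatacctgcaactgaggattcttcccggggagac

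Of the 3 genes with a match, GSTP1 fell, GCLM lay at a log2 change of 0.13 and did not pass, and GPX2, at 1.46, had too few reads to be tested with the rest. Of the genes with a promoter at hand and no match in it, GLRX fell, while GCLC lay at a log2 change of 0.35 and did not pass. The others of these genes did not pass either.

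Among the other genes of the pathway, the list of cysteine supply held 4 of the 10 that rose, from 6 tested genes, and 0 of the 9 that fell, against 7.51% higher and 6.97% lower over all genes. Its median log2 change was 0.61 with the block and 0.34 without, and its pair medians were 0.34, 0.24, 1.30 and 0.91, the largest in replicates 3 and 4. SLC7A11, the cystine importer, was at 165, 168, 86.0 and 60.5 CPM in glucose oxidase replicates 1 to 4, and at 92.6, 104, 9.68 and 7.40 CPM in control replicates 1 to 4 (log2 change 1.86, SE 0.28, blocked edgeR adjusted p = 0.000106). It was higher with glucose oxidase in each pair, and control replicates 3 and 4 were far below the other libraries. The amino acid exchangers SLC1A4 (0.75) and SLC1A5 (0.77) and CBS (0.46), which starts the transsulfuration of homocysteine, also rose. With the set term the calls of SLC1A5 (edgeR adjusted p = 0.0795) and CBS (0.143) were lost. The call of CBS was also lost with the correction for gene length (blocked edgeR adjusted p = 0.0811). Without replicate 3 or 4 the calls of SLC1A4 (blocked edgeR adjusted p up to 0.0957) and SLC1A5 (up to 0.277) were lost. That of SLC1A5 was also lost in DESeq2 with the block. Fits with a replicate left out called at most 3 genes of this list higher. SLC3A2, the partner chain of SLC7A11 (0.21), and CTH, which releases cysteine (0.23), did not pass.

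Of 12 tested genes of glutathione breakdown and transport 2 rose and 0 fell (median 0.29), against 7.51% higher and 6.97% lower over all genes. CHAC1, which cleaves glutathione inside the cell, was at 78.4, 87.2, 35.7 and 28.4 CPM with glucose oxidase and at 75.4, 81.4, 2.77 and 2.21 CPM in controls, in replicates 1 to 4. Pairs 1 and 2 were close to level and pairs 3 and 4 were not, with a log2 change of 1.59 (blocked edgeR adjusted p = 0.00772) that was lost with the set term (edgeR adjusted p = 0.0524), in DESeq2 with the block, and without replicate 4 (blocked edgeR adjusted p = 0.172). ABCC1, which exports glutathione and its conjugates, rose by 0.66 and kept its call with that term (edgeR adjusted p = 0.0483). GGCT, which acts on gamma-glutamyl peptides (-0.37), and SLC25A39, the mitochondrial carrier of glutathione (-0.06), did not pass.

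Of 12 other transferases tested 9 did not pass, 1 rose and 2 fell (median -0.27), against 7.51% higher and 6.97% lower over all genes. MGST3, a microsomal transferase, was at 38.7, 20.7, 60.4 and 59.8 CPM with glucose oxidase and at 66.4, 48.6, 119 and 80.03 CPM in controls, and fell by 0.85 on the log2 scale (blocked edgeR adjusted p = 0.000446). MGST2, of the same family, fell by 0.72 (blocked edgeR adjusted p = 0.00163). GSTM4 rose by 0.55, a call lost without replicate 2, 3 or 4 (blocked edgeR adjusted p up to 0.0981), and its reads may be shared with the other mu class genes. GSTO1 (-0.46, adjusted p = 0.0502 in the same fit) and GSTK1 (-0.33) did not pass. Of 7 other enzymes that use glutathione 0 rose and 2 fell (median -0.03), against 7.51% higher and 6.97% lower over all genes. LTC4S fell by 0.79, a call lost without replicate 1 (blocked edgeR adjusted p = 0.0528). ADH5, which oxidises the formaldehyde adduct of glutathione, fell by 0.46, a call lost with the set term (edgeR adjusted p = 0.144) and without any 1 of the replicates (blocked edgeR adjusted p up to 0.234). PTGES (-0.03) and GLO1 (0.02), a prostaglandin synthase and the methylglyoxal enzyme, did not pass.

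None of the 5 tested other peroxidases and glutaredoxins passed (median -0.33), against 7.51% higher and 6.97% lower over all genes. GLRX3 was at -0.39 and GLRX5, a mitochondrial glutaredoxin of iron-sulfur cluster assembly, at -0.33. GPX3, a peroxidase at low level (4.00 CPM with glucose oxidase, 2.31 CPM in controls), was the 1 gene above 0. Its log2 change was 0.78 (blocked edgeR adjusted p = 0.0562), with pair differences of 0.26, 0.03, 1.95 and 0.98. It was called higher with the length correction (blocked edgeR adjusted p = 0.0416) and with no filter (blocked edgeR adjusted p = 0.01555). Of 11 tested genes of NADPH supply 1 rose and 1 fell (median 0.15), close to the shares over all genes (7.51% higher and 6.97% lower). ALDH1L2, a mitochondrial folate enzyme, rose by 1.55 (blocked edgeR adjusted p = 6.3e-05), and IDH1, the cytosolic isocitrate dehydrogenase, fell by 1.12 (adjusted p = 2.6e-05). IDH1 was at 33.6, 33.2, 210.4 and 213 CPM with glucose oxidase and at 79.5, 64.5, 532 and 411 CPM in controls. MTHFD1 (0.26) and PGD (-0.06) did not pass.

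The machinery that inserts selenocysteine held 0 calls among 8 tested genes (median 0.06), against 7.51% higher and 6.97% lower over all genes. SECISBP2 was at 0.22 and SEPHS1 at 0.02. Of 17 other selenoprotein genes tested 2 rose and 4 fell (median -0.33), against 7.51% higher and 6.97% lower over all genes. TXNRD1, the cytosolic thioredoxin reductase, was at 379.7, 301, 314 and 280.5 CPM with glucose oxidase and at 147, 185, 249 and 227 CPM in controls, with every glucose oxidase library above every control. It rose by a log2 change of 0.68 (blocked edgeR adjusted p = 0.00881), a call lost without replicate 1 (log2 change 0.46, blocked edgeR adjusted p = 0.0912). SELENON rose by 0.55, a call lost with the set term (edgeR adjusted p = 0.124) and without replicate 1 or 2 (blocked edgeR adjusted p up to 0.0756). SELENOH (-0.75), the methionine sulfoxide reductase MSRB1 (-0.71), the deiodinase DIO2 (-1.48) and SELENOW (-0.45) fell, of which SELENOH and SELENOW lost the call with that term and DIO2 without replicate 2 (log2 change -1.17, blocked edgeR adjusted p = 0.0635). SELENOF (-0.26) and SELENOT (-0.39) did not pass. Of the selenocysteine peroxidases, GPX1 (-0.40) and GPX4 (-0.16) had fitted changes below 0, as had the list's median. GPX2 went the other way, at 1.46 with genes of low counts kept (blocked edgeR adjusted p = 0.202). So did GPX3, at 0.78 in the filtered blocked fit, where it did not pass.

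**Figure D5:**
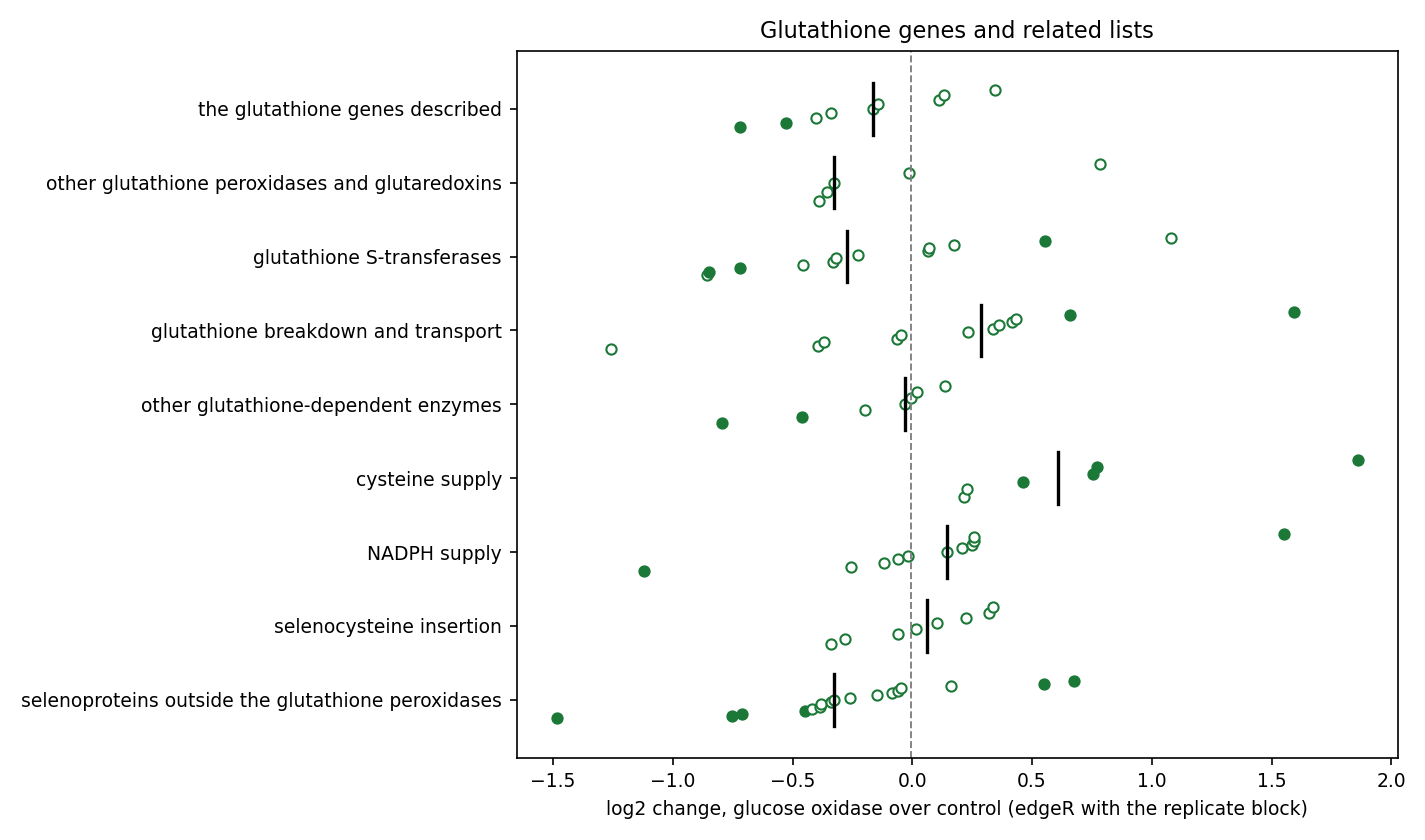
Log2 change (glucose oxidase over control, edgeR with the replicate block) of the 9 glutathione genes and of the tested genes of 8 related lists, 1 point a gene, filled where the adjusted p is below 0.05 over all genes. Black bars are list medians and the dashed line is the median of all genes tested (-0.01). The cysteine supply list has the highest median (0.61), and the 2 filled points of the glutathione genes lie below 0.

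The genes whose levels were most like those of GLRX over the 8 libraries were LINC02001, CISD1 and CRYZ (Pearson r of log2 CPM 0.993, 0.993 and 0.992). Those most like GCLC were NARS2, PHF20 and RAB6A (0.989, 0.985 and 0.981). The 8 points of each correlation share the separation of replicates 1 and 2 from replicates 3 and 4, and genes were searched for the highest values, so no p is given.

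In the authors' deposited table none of the 10 genes passed, with an adjusted p of 0.621 (GSTP1, log2 change -0.51) to 0.936 (GSS, 0.09). The authors' deposited table gave GLRX a log2 change of -0.59 (adjusted p = 0.795) and GPX2 one of 1.25 (adjusted p = 0.693).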

How the data were processed

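RNA-seq values of 8 SV-HUC1 libraries were used, 4 with glucose oxidase and 4 untreated. The counts deposited by the authors are whole reads per gene, not normalised. The deposited FPKM values are per kilobase of gene length and scaled by the authors' size factors. The authors' deposited comparison table holds a size-factor-normalised signal per library and group, a log2 fold change and a p-value with its adjusted value. The submitters' processing notes name GRCh38.p13, HISAT2 2.0.5, DESeq2 1.20.0 and featureCounts 1.5.0-p3. The strand setting was not given in the sources used here. Gene names and positions equal those of GENCODE 29.

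Counts were tested with edgeR 4.0.16 (quasi-likelihood, TMM, filterByExpr, Benjamini-Hochberg adjusted p below 0.05, R 4.3.3) with the group as the only term. Alternatives were a replicate block, a term for the sets of replicates (1 and 2, 3 and 4; a division found from the expression values), total-count scaling, no filter, DESeq2 1.42.0, a spline of gene length with 3 degrees of freedom, and leaving out replicates. Log2 CPM had a prior count of 2. The scripts were tested on simulated data. Same-number libraries correlated at 0.532, 0.678, 0.590 and 0.503 in their deviations from the group means, over the minimum of 0.1 for pairing, but glucose oxidase replicate 4 was closer to control replicate 3 (0.652). No 2 libraries of a group agreed within sampling noise. Independence of the cultures rests on the labels and the design text, and p-values measure the spread between these samples. In a blocked fit this is the spread left after the differences between replicate numbers are taken out.

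The 10 genes and the lists were chosen with earlier results of these data known, and list counts carry no test. In each list up to 3 called genes in each direction and up to 2 abundant genes not called were named. CBS and SELENOW, which complete a count, and GPX3 were named after their values were seen. GSTT1 was not analysed here. Intervals of fitted changes cover the spread between libraries that the terms of the fit leave over. CPM precision follows from 21437267 to 27183692 counts per library.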

Additional observations from a re-analysis of the deposited data

Results flagged for a closer look

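In none of the 10 glutathione genes did a library stand far from the others of its group, and none of the 9 tested passed the test of a difference between the sets of replicates. The results given here are of other genes of the pathway. In a look at 86 groups of 4 libraries, of which chance flags about 1 in 20, MTHFD1 was at 155 CPM in glucose oxidase replicate 2 and at 92.0 to 102 CPM in the other glucose oxidase libraries. SELENON was at 86.0 CPM in glucose oxidase replicate 2 and at 47.0 to 48.9 CPM in the others. The change with glucose oxidase differed between replicates 3 and 4 and replicates 1 and 2 for 3 named genes, as a test of the interaction in edgeR with adjustment over all genes. For CHAC1 the adjusted p was 0.000146, with a log2 ratio of 3.69 in replicates 3 and 4 against 0.08 in the other set. For SLC7A11 the adjusted p was 0.00444, with log2 ratios of 3.10 in replicates 3 and 4 against 0.76, and for SLC1A5 it was 0.0323, with 1.61 against -0.06. The sets were found from the expression values and are not in the labels.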

How the results depend on the processing

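The calls rest on the replicate block, since the filtered edgeR fit without it called 0 genes higher and 0 lower. The counts of genes called higher and lower were 1308 and 1213 with the block, 648 and 534 with the set term, 1675 and 535 with total counts and the block, 1317 and 976 with no filter and the block, 1210 and 1301 with DESeq2 and the block, and 1035 and 1191 with the length correction and the block. Without the block they were 18 and 16 with no filter and 35 and 39 with DESeq2. Leaving out replicates gave 0 to 978 higher and 0 to 908 lower, all of them 0 without the block. With total counts and the block the median over all genes was 0.10 on the log2 scale, against -0.01, and 75.8% of calls were higher, against 51.9%. Of the glutathione genes, 2 were lower with the block, 1 with the set term, 1 with total counts and the block, 2 with no filter and the block, 3 with DESeq2 and the block, 1 with the length correction and 0 to 2 with replicates left out. The number higher was 0 in each of these fits except 1 without replicate 3 (0 to 1). Of the genes of the other lists, 10 were higher and 9 lower with the block, 6 and 6 with the set term, 11 and 7 with total counts and the block and with no filter and the block, 8 and 14 with DESeq2 and the block, and 11 and 11 with the length correction. DESeq2 without the block called 1 lower, and leaving out replicates gave 0 to 9 higher and 0 to 8 lower.

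Of the 9 tested glutathione genes, GSS, GSR and GPX4 changed sign when a replicate was left out, within -0.0308 to 0.289, -0.216 to 0.0318 and -0.301 to 0.0327 on the log2 scale. With replicates left out, log2 changes ran from -0.133 to 0.0467 for SLC25A39, -0.15 to 0.16 for PTGES, -0.373 to 0.246 for GLO1, -0.0618 to 1.08 for SLC1A5, -0.245 to 0.415 for SLC3A2, -0.13 to 0.0195 for PGD and -0.0666 to 0.147 for SEPHS1. SLC25A39 was at 0.0312 with total counts and 0.047 with the block as well, and PGD at 0.0473 and 0.0489. PTGES was at -0.031 with the block, -0.0354 with the set term, -0.00558 with no filter and the block, and -0.00293 and -0.0354 with DESeq2 without and with the block. GLO1 was at 0.0201 with the block, 0.0237 with the set term, 0.0439 and 0.13 with total counts without and with the block, 0.0454 with no filter and the block, 0.0159 with DESeq2 and the block and 0.106 with the length correction. None of these passed in any of those fits, SLC1A5 apart, and the cause was not tested. The difference between the sets of replicates was called for 0 glutathione genes and 3 named genes, and for 4 with no filter. With 4 libraries a group and GPX2 at 1 to 22 counts, a change of GPX2 could not be resolved.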
